A study of Mus musculus with 9 samples.

Results

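The adult mouse heart at 10 weeks was compared with the newborn heart at 24 hours, gene by gene. All 3 arrays labelled 10-week and all 3 labelled 24-hour entered the comparison, which is 6 of the 9 arrays of the series. Every array held total RNA from cardiac muscle of mice of the C57BL/6 strain, which is inbred, hybridised to the Affymetrix Mouse Gene 1.0 ST array, whose probes lie along the length of each transcript. No genetic change or treatment was given for either age, so age is the labelled difference. The remaining 3 arrays, of 7-day hearts, helped to estimate the spread between replicates and to choose the probe set of genes with several. Their values are printed without a test where they show the level between the ages. The labels do not say whether replicates came from separate animals, from pooled hearts or from which chambers, and p-values therefore measure only the spread between these samples. Each value is the deposited log2 signal of 1 gene, so that a difference of 1 is a 2-fold change.

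In rodents the days after birth close a period in which heart muscle cells still divide, and later growth comes mainly from enlargement of existing cells. Over the same interval the heart passes from a milk-fed newborn to an adult circulation, its contractile proteins are exchanged for adult forms, its mitochondria multiply and fatty acids become its main fuel. Immune cells, fibroblasts, vessels and nerves also fill the tissue, and whole-heart RNA reports on all of them together. In such bulk samples fewer cells of a type and less RNA per cell cannot be told apart.

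Of 19938 genes tested, 7989 (40.1%) passed a Benjamini-Hochberg adjusted p of 0.05 in limma. Of these, 3878 (19.5% of the genes tested) were higher at 10 weeks and 4111 (20.6%) were lower. Most of these changes were small: 6716 of the called genes differed by less than 2-fold. At least 2-fold, 598 genes (3.0%) were called higher and 675 (3.39%) lower, and at least 16-fold, 11 rose and 11 fell. The median difference over all genes was 0.04 and the median standard error (SE) of a difference was 0.08. The 3 arrays of each age did not overlap for 9601 genes (48.2%). Bright genes were called more often, with 67.1% of the brightest 25% of genes called against 11.3% of the dimmest 25%. Array medians over the genes lay between 5.50 and 5.58. No detection call was used, so where 1 age read below about 4.9, the median of all features, its level above background is unknown and a printed fold is only the ratio of the deposited signals. Some arrays stood apart in single tissues' genes. The atrial list had its lowest median signal on 10-week replicate 1, though not every atrial gene was lowest there. The airway gene Scgb1a1 stood out on 24-hour replicate 1 alone among these 6 arrays (5.83, against 2.49 to 2.76 on the others).

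**Figure D1:**
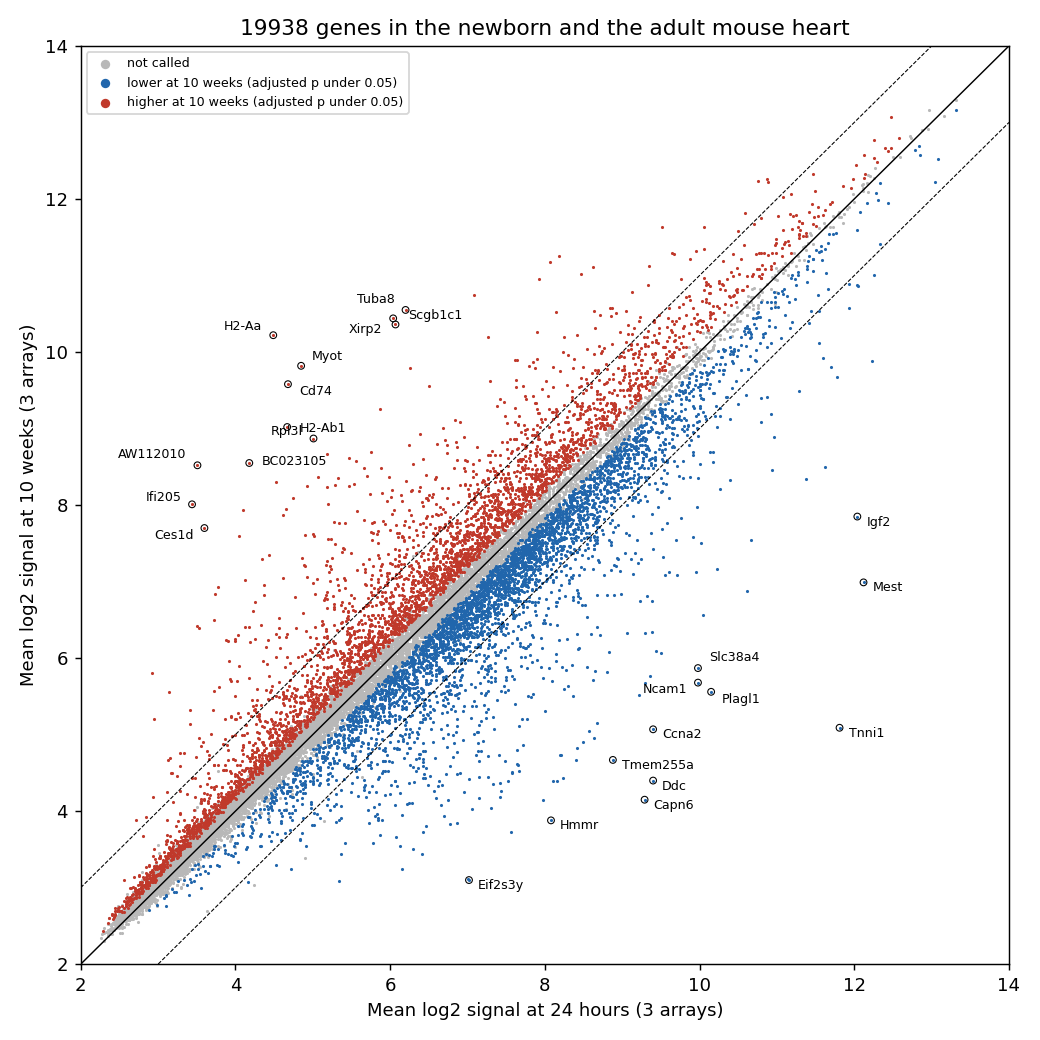
Mean log2 signal at 24 hours (horizontal) against 10 weeks (vertical) for 19938 genes, with genes called higher in red, called lower in blue and not called in grey. The solid line marks equal signal and the dashed lines 2-fold differences; the 12 largest rises and 12 largest falls are circled, with Tnni1 farthest below the line and H2-Aa farthest above it.

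Tnni1, the slow skeletal troponin I that the fetal heart uses, had the largest fall. Its log2 signal was 11.77, 11.79 and 11.87 at 24 hours and 4.86, 5.17 and 5.25 at 10 weeks. The ages were far apart and the replicates of each age were close, and the fall of 6.71 on the log2 scale (SE 0.09) was 105-fold (adjusted p = 8.81e-11). At 7 days the mean was still 11.09. The other large falls came from the imprinted genes Mest, Plagl1, Igf2 and Slc38a4, the mitotic genes Ccna2 and Hmmr, the cell adhesion gene Ncam1, the Y-linked gene Eif2s3y, and Capn6, Ddc and Tmem255a. Ddc, which encodes aromatic amino acid decarboxylase, read 9.5, 9.22 and 9.47 in newborns and 4.59, 4.27 and 4.35 in adults, a fall of 5.0 on the log2 scale (32.0-fold). Capn6, a calpain without protease activity, fell by 5.14 on the log2 scale, from 9.29 to 4.15. Ncam1, the neural cell adhesion molecule, was at 9.89, 10.11 and 9.95 at 24 hours and at 5.59, 5.49 and 5.95 at 10 weeks, with no overlap. Tmem255a, a membrane protein gene, went from a mean of 8.88 to 4.67.

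Among the largest rises, H2-Aa, the alpha chain of an MHC class II molecule, led. It was at 4.66, 4.46 and 4.35 at 24 hours and at 10.31, 9.79 and 10.55 at 10 weeks. Every adult array was above every newborn array, and the rise of 5.73 (SE 0.16) was 53.0-fold (adjusted p = 4.26e-09) as a ratio of signals, with newborns below the median of all features. The class II genes Cd74 and H2-Ab1 and the interferon-inducible Ifi205 also stood among the 12 largest rises. Muscle genes in that group were Myot, Xirp2 and Tuba8. Tuba8, an alpha-tubulin of heart and skeletal muscle, rose from 6.11, 6.05 and 6.45 to 10.51, 10.38 and 10.77, with 8.80 as the mean at 7 days. Rpl3l, the ribosomal protein that takes the place of Rpl3 in striated muscle, rose by 3.86 (14.5-fold), from 5.01 to 8.87. The carboxylesterase gene Ces1d rose by 4.10 (SE 0.45), the secretoglobin gene Scgb1c1 by 4.29 and the transcript AW112010 by 5.0. The 7-day arrays of Ces1d, which enter its SE, were uneven at 4.14, 6.42 and 4.78. BC023105 was uneven among adults, at 8.77, 6.89 and 9.98 against 3.99 to 4.35 in newborns.

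**Figure D2:**
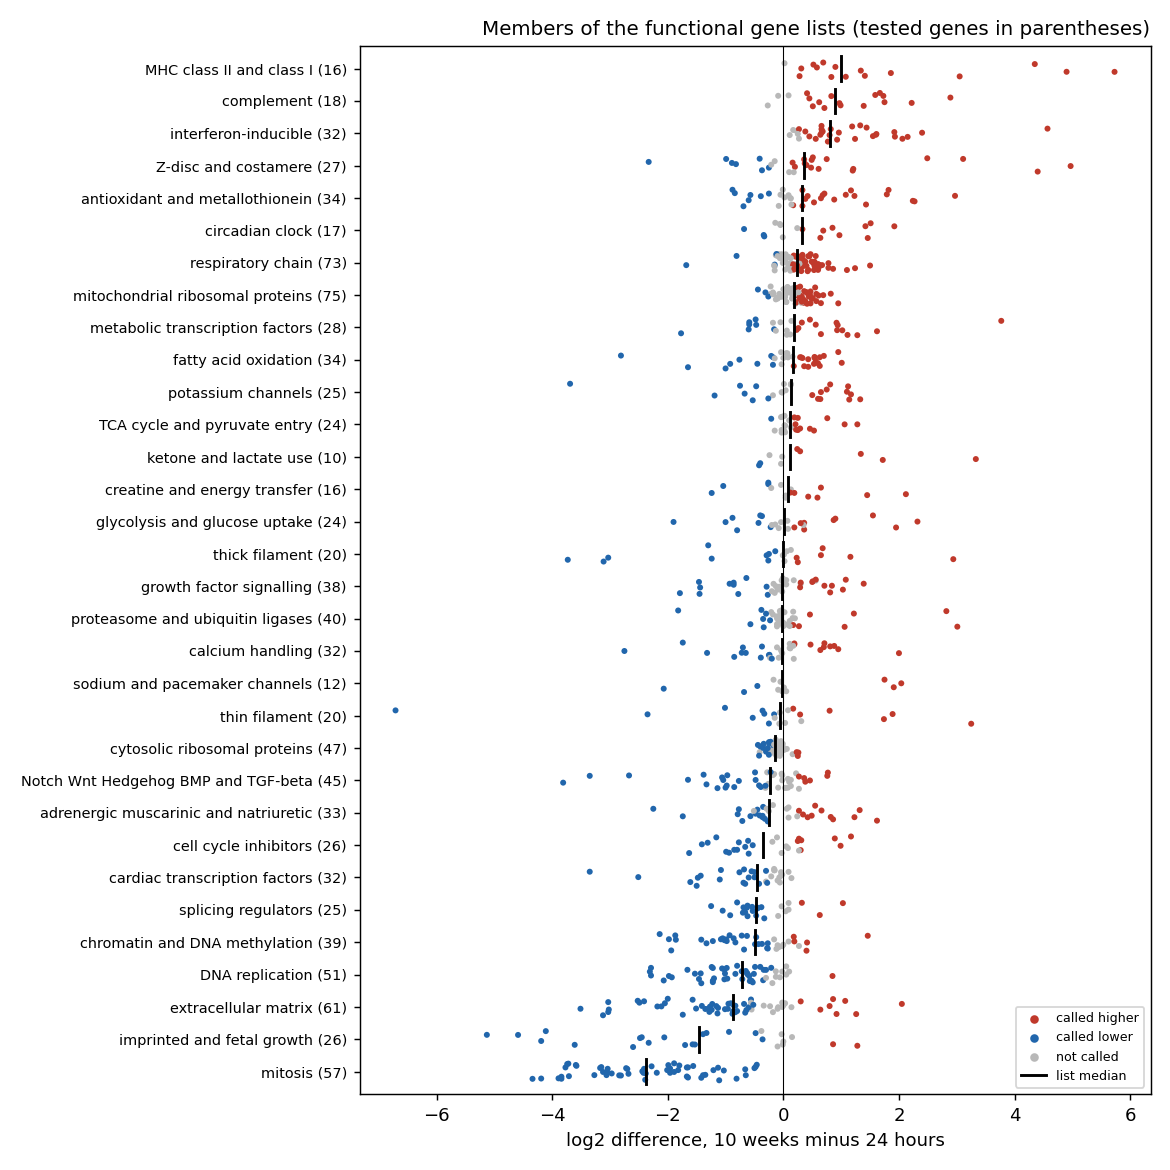
Each point is 1 tested gene of a functional list, placed by its log2 difference (10 weeks minus 24 hours); red and blue points were called higher and lower, grey points were not called, and black bars mark list medians. The mitosis list lies wholly below 0, with a median of -2.38, and the MHC list has the highest median, 0.99.

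The sarcomere lists did not move in 1 direction. In the thin filament list, 6 of 20 tested genes were called higher and 8 lower, with a median difference of -0.07. Of all genes, 19.5% were called higher and 20.6% lower. In the thick filament list the counts were 6 and 9 of 20, with a median of 0.00. Within both lists single isoforms moved far while genes of the core ventricular proteins moved little in signal. Some of these core genes, such as Actc1 and Tnnt2, lay close to the highest signals of the arrays, 13.47 to 13.58. Whether saturation narrowed their differences was not tested. Tnni3, the adult cardiac troponin I, was at 12.21, 12.23 and 12.30 in newborns and 12.62, 12.54 and 12.47 in adults, a rise of 0.29 (SE 0.05). It was thus near its adult signal at birth, when Tnni1 was still present. Cardiac troponin T (Tnnt2) and C (Tnnc1) were not called, with differences of -0.07 and 0.03. Tnnt1, the slow skeletal troponin T, fell by 0.53 on the log2 scale, a call that ended when 10-week replicates 2 and 3 were left out (-0.32), which leaves 1 adult array that the fit takes to vary as the other ages do.

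Among the actins, the skeletal form Acta1 rose from 8.57, 8.62 and 8.71 to 10.36, 10.73 and 10.49. The newborn and 7-day means were close (8.63 and 8.51), and the adult mean of 10.53 was 3.71-fold above the newborn one (adjusted p = 1.81e-07). The smooth muscle actin Acta2, which immature heart muscle cells also express, fell from 12.13, 12.27 and 12.27 to 9.69, 9.79 and 10.16, a 5.09-fold fall. Cardiac actin, Actc1, fell by 0.16 on the log2 scale, from 13.32 to 13.16. Of the proteins that cap or lengthen the thin filament, tropomodulin 4 (Tmod4) rose by 3.25, with newborn arrays at 4.56 to 4.66 and adult arrays at 7.81 to 7.97. Of the leiomodins, which nucleate actin filaments, Lmod2 rose by 1.74 and Lmod3 by 0.80. Tpm2, the beta-tropomyosin, fell by 1.01 on the log2 scale.

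Of the myosin heavy chains, Myh7, the slow beta form that dominates in the fetal ventricle of the mouse, fell from 12.12, 12.42 and 12.23 to 10.86, 11.11 and 11.07. The adult arrays were all below the newborn ones, by 2.37-fold (adjusted p = 2.29e-05), but they were above the 7-day mean of 9.16. Myh6, the fast alpha form, was at 12.75 to 12.80 in newborns and 12.62 to 12.66 in adults. Its difference of -0.14 was called (adjusted p = 0.0152), and was no longer called without 24-hour replicate 3 (-0.14) or with 10-week replicate 1 as the lone adult array (-0.12). The ventricular light chain Myl2 was among the 10 bright genes with the narrowest interval around 0: newborns read 12.85, 12.88 and 12.91 and adults 12.93, 12.90 and 12.88. Mylk4, a myosin light chain kinase of heart, rose by 2.94, from 5.47, 6.10 and 5.69 to 8.64, 8.57 and 8.87. Mylk3, the cardiac light chain kinase, rose by 0.65 and the M-band protein gene Myom2 by 0.68. Myl9, the smooth muscle and non-muscle regulatory light chain, fell by 3.11 on the log2 scale (8.66-fold), from 11.62 to 8.50.

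The atrial light chains were uneven among the adult arrays. Myl7 read 10.86, 10.71 and 10.27 at 24 hours and 4.70, 8.43 and 7.52 at 10 weeks. Myl4 read 11.56, 11.39 and 11.16, then 6.43, 9.77 and 8.83. Both were lower on every adult array, yet the adult arrays spanned more than 3 units among themselves, and 10-week replicate 1 was lowest for both genes. The falls were 3.73 (SE 0.72) and 3.03 (SE 0.63) on the log2 scale. With 10-week replicate 1 as the lone adult array both stayed called, Myl7 at -5.92 and Myl4 at -4.94. In that setting the list had 5 genes called lower in place of 9, and titin (Ttn), which was no longer called, differed by -0.38 in place of -0.26.

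**Figure D3:**
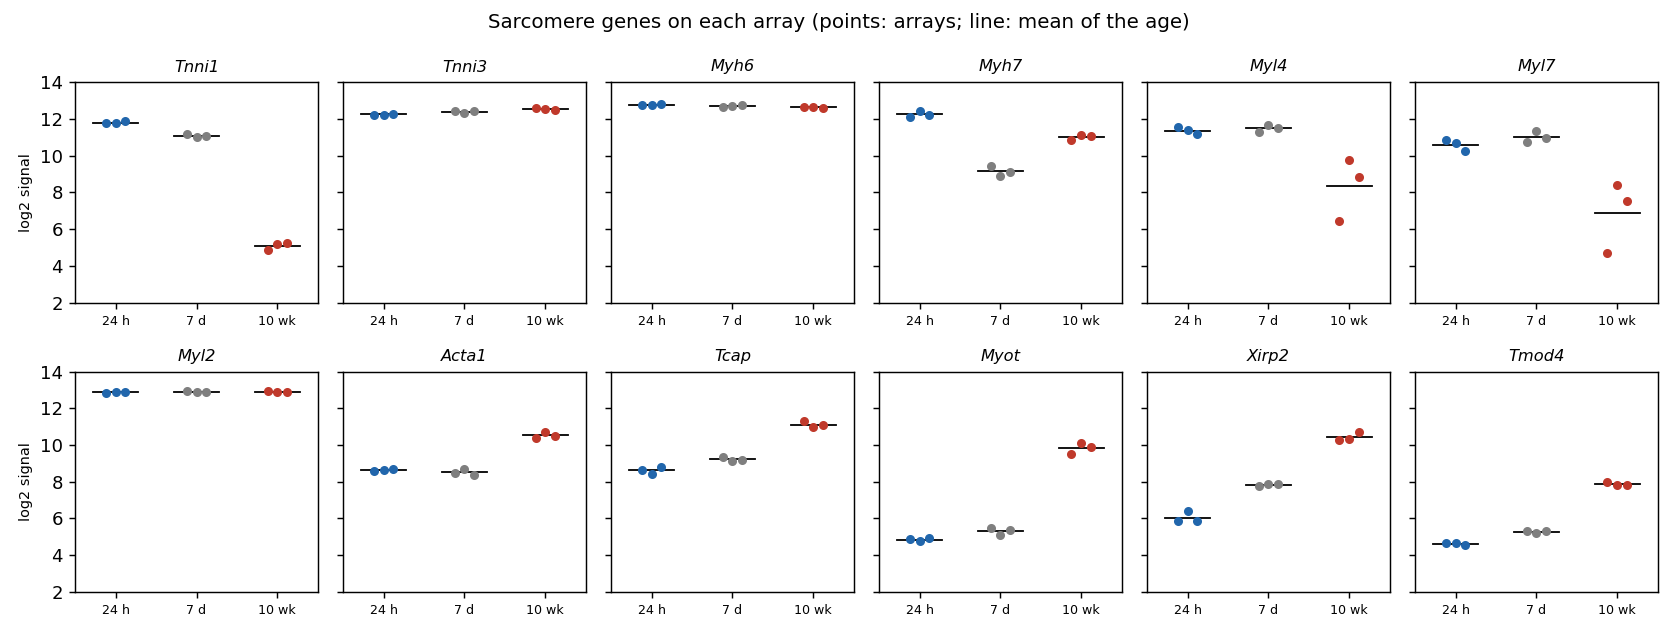
Log2 signal of 12 sarcomere genes on each array, by age (24 h, 7 d and 10 wk); points are arrays and lines are means of 3. Most of the fall of Tnni1 comes after 7 days, Myh7 is lowest at 7 days, and Myl4 and Myl7 differ widely among the 10-week arrays.

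The Z-disc anchors thin filaments and carries mechanical sensors, and 16 of 27 tested genes of its list were called higher, against 19.5% of all genes. The 7 called lower stood against 20.6% of all genes, a similar share, and the median was 0.36. Myotilin, Myot, a Z-disc protein that binds alpha-actinin and filamin, rose from 4.88, 4.75 and 4.93 to 9.49, 10.09 and 9.89. At 7 days its mean was 5.31, close to the newborn level, and the full rise was 4.97 (31.3-fold). Xirp2, a Xin-repeat protein of the intercalated disc, rose from 5.87, 6.42 and 5.85 to 10.27, 10.33 and 10.72, passing 7.83 at 7 days. Ankrd23, a muscle ankyrin repeat protein that binds titin, rose by 3.11. Telethonin, Tcap, which caps titin at the Z-disc, rose from 8.63, 8.40 and 8.82 to 11.30, 10.96 and 11.07. Synpo2, an actin-bundling protein, rose by 1.21. In the other direction, the PDZ-LIM protein gene Pdlim3 fell by 2.33 on the log2 scale (5.01-fold) and vinculin (Vcl), which links the costamere to the membrane, by 0.99. Xirp1, the other Xin-repeat gene, fell by 0.41 on the log2 scale, so the paralogs Xirp1 and Xirp2 were called in opposite directions.

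Calcium handling genes split evenly, with 10 of 32 called higher and 12 lower, against 19.5% and 20.6% of all genes, and a median of -0.03. Hrc, the histidine-rich calcium-binding protein of the sarcoplasmic reticulum, had the largest rise of the list, from 7.56, 7.61 and 7.71 to 9.73, 9.53 and 9.62 (4.01-fold). S100a1, a calcium sensor that binds the ryanodine receptor and the calcium pump, rose by 0.95, and Cacna2d1, an auxiliary subunit of the L-type calcium channel, by 0.88. The sodium-calcium exchanger Slc8a1, which carries calcium out across the surface membrane, fell from 10.88, 10.96 and 10.95 to 9.10, 9.16 and 9.30, a 3.35-fold fall with no overlap. Casq1, the skeletal calsequestrin, fell by 2.75 on the log2 scale. The T-type calcium channels Cacna1g and Cacna1h, which fetal heart cells use for pacing, fell by 1.32 and 0.72 on the log2 scale. Of the junctophilins, which hold the T-tubule to the sarcoplasmic reticulum, Jph1 rose by 0.81 and Jph2 by 0.47. The calcium pump Atp2a2 differed by 0.19 and its inhibitor phospholamban (Pln) by 0.11; Atp2a2 was called and Pln was not. Quantile normalization ended the call of Atp2a2 (0.10), while Pln was called after quantile normalization, after median centring and without 10-week replicate 2 (0.14 to 0.15).

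Ion channels of the action potential moved in both directions. Among potassium channels 11 of 25 were called higher and 7 lower, against 19.5% and 20.6% of all genes, with a median of 0.13. Subunits of the fast transient outward current, which gives the adult mouse heart its short action potential, rose: Kcnd2 by 1.33, from 6.43 to 7.76, and its partner Kcnip2 by 1.12, from 8.10 to 9.22. Kcna4, the subunit of the slower transient current, fell by 1.19 on the log2 scale. Delayed rectifier genes went both ways. Kcne1, the accessory subunit of the slow current, read 8.45, 8.72 and 8.74 in newborns and 4.28, 5.79 and 4.78 in adults, a 12.9-fold fall, while its 7-day mean was 9.33. Its pore subunit Kcnq1 fell by 0.67 on the log2 scale and Kcnh2, the pore of the rapid current, by 0.75. Kcna5, the pore of the ultrarapid current, rose by 0.50, from 5.69 to 6.19; it was named after its values were seen. Kcnj2, the main inward rectifier, was not called (7.32 and 7.14).

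The sodium and pacemaker channel list had 3 of 12 genes called in each direction, near the 19.5% and 20.6% of all genes called higher and lower. Scn4b, a sodium channel beta subunit, rose from 3.81, 4.13 and 3.80 to 5.96, 5.97 and 5.95. The pacemaker channel gene Hcn2 rose by 1.91, from 5.21 to 7.12, whereas Hcn4, the form of the sinus node, was not called (5.87 and 5.71). The gap junction gene Gja5, found in atria and conduction tissue, fell by 2.07 on the log2 scale, and Gja1, the connexin of working heart muscle, by 0.45. Scn7a, a sodium-sensing channel, rose by 1.75.

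Genes of glucose use went both ways, with 9 of 24 called higher and 8 lower, against 19.5% and 20.6% of all genes. The median was 0.01. The insulin-responsive glucose transporter Slc2a4 rose from 8.20, 8.11 and 8.30 to 9.70, 9.82 and 9.73, which was 2.92-fold (adjusted p = 2.79e-08). The fetal transporter Slc2a1 was lower at 10 weeks by 1.32-fold, with adult arrays at 7.75 to 7.86 and newborn arrays at 8.06 to 8.41. Hexokinase 2 (Hk2), the insulin-responsive form that starts glucose breakdown, rose from 7.31, 7.40 and 7.57 to 9.44, 9.35 and 9.34. Hk1 was not called on its brightest probe set (11.69 and 11.64), and was called lower when its probe sets were averaged (-0.25). Pfkfb2, the heart enzyme that makes the activator of phosphofructokinase, rose by 2.32, with newborn arrays at 6.65 to 6.77 and adult arrays at 8.99 to 9.04. The muscle phosphofructokinase Pfkm rose by 0.87 and the platelet form Pfkp fell by 1.00 on the log2 scale. Aldoc, an aldolase of brain and fetal tissue, fell by 1.90 on the log2 scale and Pgk1, which makes ATP in glycolysis, by 0.80. The muscle glycogen phosphorylase Pygm rose by 0.90.

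Ketone use gave some of the largest metabolic changes. Bdh1, which oxidises beta-hydroxybutyrate, was at 4.86, 4.93 and 4.99 at 24 hours, at a mean of 4.47 at 7 days, and at 8.47, 8.27 and 8.02 at 10 weeks. The 10-week arrays were all far above the rest, and the rise of 3.33 (SE 0.12) was 10.0-fold (adjusted p = 1.63e-08). Oxct1, which activates ketone bodies for oxidation, rose by 1.34 and the D-lactate dehydrogenase Ldhd by 1.72. In this list 5 of 10 genes were called higher and 2 lower, against 19.5% and 20.6% of all genes. Of the main lactate dehydrogenases, Ldha fell by 0.42 on the log2 scale and Ldhb, the heart form, rose by 0.29.

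The fatty acid oxidation list had 17 of 34 genes called higher and 9 lower, against 19.5% and 20.6% of all genes. Its median was 0.17, and only 1 of the rises reached 2-fold. That gene was Plin5, which ties lipid droplets to mitochondria, at 7.15, 7.23 and 7.42 in newborns and 8.41, 8.28 and 8.13 in adults. Lipoprotein lipase (Lpl), which frees fatty acids in the capillary, rose by 0.95. Acot13 and Decr1, enzymes of acyl-CoA breakdown, each rose by 0.63. The largest changes among the tested genes of the list were falls. Cpt1b, Acsl1 and Acsl3, which were also listed, were not among the tested genes, so their direction is unknown here. Angptl4, a secreted inhibitor of lipoprotein lipase, fell from 8.67, 8.61 and 8.67 to 5.77, 6.06 and 5.67, a 7.04-fold fall. Cpt1a, the liver form of the carnitine palmitoyltransferase through which long-chain fatty acids enter mitochondria, fell from 9.16, 9.17 and 9.24 to 7.65, 7.49 and 7.47. Pdk4, which blocks pyruvate oxidation, fell by 1.00 on the log2 scale and the mitochondrial thioesterase Acot2 by 0.92.

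Of 73 respiratory chain genes 46 were called higher and 4 lower, against 19.5% and 20.6% of all genes, with a median of 0.24. The list is bright, and of the brightest 25% of genes 67.1% were called in either direction. Only 3 of the rises reached 2-fold. Leaving out single arrays moved the count of higher genes between 36 and 48, and quantile normalization gave 8 genes called lower. In complex I, the entry point for electrons from NADH, the subunits Ndufb3 and Ndufa5 rose by 1.10 and 0.86. In cytochrome c oxidase, subunits exist in a ubiquitous and a muscle form, and the forms moved apart. Cox6a1, the ubiquitous form, fell from 11.55, 11.49 and 11.76 to 9.97, 9.95 and 9.83, while the muscle form Cox6a2 rose from 11.89, 12.06 and 12.12 to 12.51, 12.35 and 12.46. Cox8a fell by 0.81 on the log2 scale and its muscle counterpart Cox8b rose by 1.24. Cox7a1, the muscle form, rose from 10.61, 10.73 and 10.91 to 12.37, 12.29 and 12.07, a 2.82-fold rise, and Cox7a2 was not called (10.32 and 10.17). In the TCA cycle and pyruvate entry list 11 of 24 were called higher and 1 lower, against 19.5% and 20.6% of all genes. Without 7-day replicate 1, 2 were called lower. This list is also bright, with median signals of 11.09 in newborns and 11.23 in adults. Its calls in both directions together were no more frequent than the 67.1% of the brightest genes. The rises were led by Mpc1 (1.28), a subunit of the mitochondrial pyruvate carrier, and Pcx (1.06), pyruvate carboxylase. The call of Pcx ended without 10-week replicate 1, without 24-hour replicate 1 and with 10-week replicate 1 as the lone adult array (0.98 to 1.22). Ogdh, of the 2-oxoglutarate dehydrogenase complex, rose by 0.76.

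**Figure D4:**
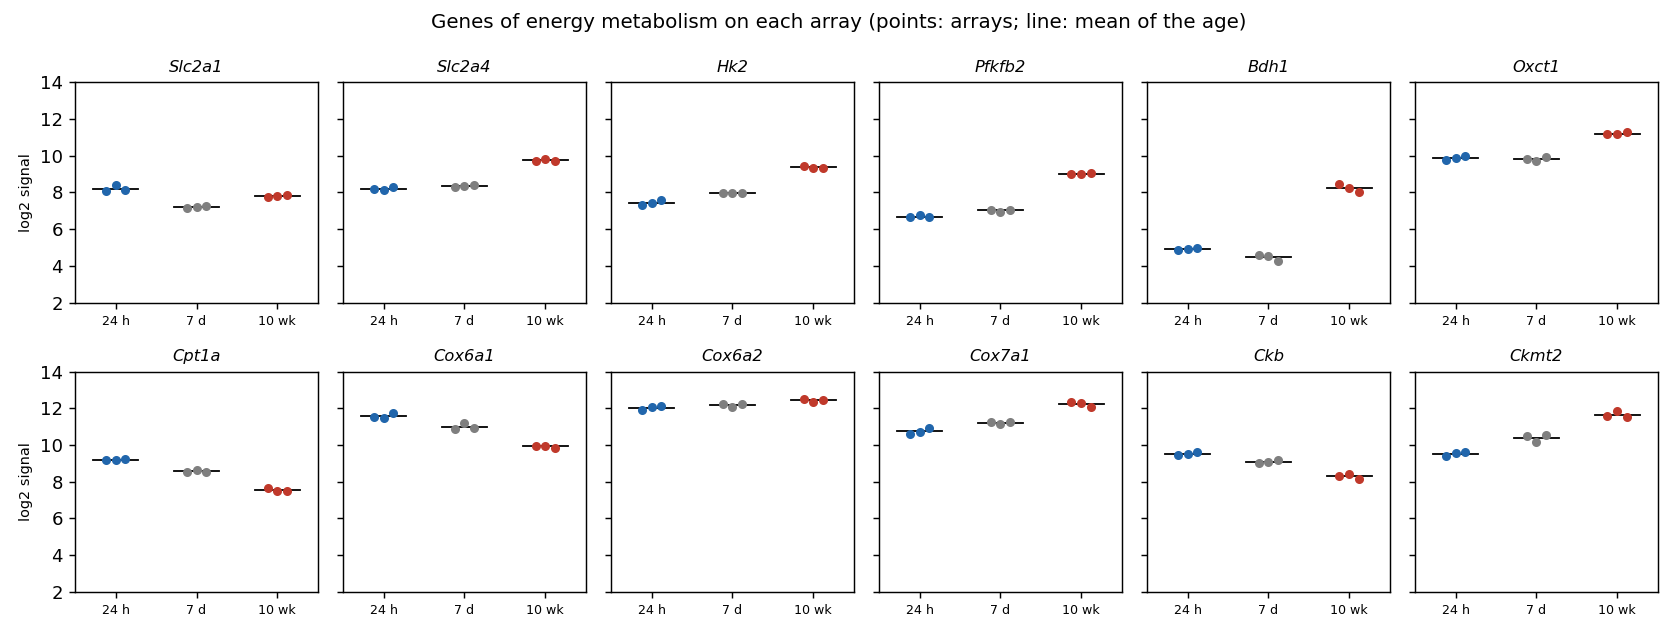
Log2 signal of 12 genes of energy metabolism on each array, by age; points are arrays and lines are means of 3. Bdh1, Oxct1 and Slc2a4 differ little between 24 hours and 7 days and stand higher at 10 weeks, while Cox6a1, Ckb and Cpt1a step down over the 3 ages.

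Creatine kinases pass ATP from mitochondria to the myofibrils. The creatine and energy transfer list had 7 of 16 genes called higher and 4 lower, against 19.5% and 20.6% of all genes. Ckmt2, the creatine kinase of muscle mitochondria, rose from 9.40, 9.56 and 9.60 to 11.58, 11.83 and 11.50 (4.34-fold), while the brain form Ckb fell by 1.24 on the log2 scale. Of the adenine nucleotide translocases, which exchange ADP for ATP, Slc25a5 fell by 1.04 on the log2 scale, and the muscle form Slc25a4 was not called (12.95 and 12.91). Myoglobin, Mb, rose by 0.59.

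Among 28 transcription factors of metabolism, 14 were called higher and 7 lower, against 19.5% and 20.6% of all genes. The retinoid receptor Rxrg rose from 4.57, 4.37 and 4.63 to 8.22, 8.42 and 8.25, passing 6.68 at 7 days. Its 13.7-fold rise was by far the largest of the list (adjusted p = 8.22e-10). The thyroid hormone receptor genes moved apart: Thrb rose by 1.62 and Thra fell by 0.48 on the log2 scale. Ppara, a receptor that turns on fatty acid oxidation, rose by 0.93, from 6.97, 7.25 and 7.06 to 8.06, 8.05 and 7.96. Its coactivators fell, Ppargc1a by 0.47 and Ppargc1b by 0.60 on the log2 scale. Of the oxygen-sensing factors, Epas1 rose by 1.28, whereas Hif1a fell by 0.59 and Hif3a by 1.77 on the log2 scale. Tfb2m, a mitochondrial transcription factor, rose by 1.02.

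All 57 tested genes of the mitosis list were called lower at 10 weeks, against 20.6% of all genes, and 51 of them fell at least 2-fold. The list median was -2.38, and leaving out any single array left all 57 called. Cyclin A2, Ccna2, which drives S phase and entry into mitosis, fell from 9.27, 9.28 and 9.66 to 4.73, 5.52 and 4.95, a 20.2-fold fall. Its mean was 9.40 at 24 hours and 9.22 at 7 days. The kinase Bub1, of the spindle checkpoint, fell from 6.93, 6.85 and 7.24 to 2.98, 3.14 and 3.23. Mki67, whose protein coats mitotic chromosomes and is the usual stain for dividing cells, fell from 9.27, 9.23 and 9.58 to 5.41, 6.36 and 5.54. For Ccna2 and Mki67, 10-week replicate 2 was the highest adult array. Prc1, which bundles spindle microtubules for cytokinesis, and Ect2, which sets the cleavage furrow, each fell by 3.84 on the log2 scale.

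The promoters of these genes are shown because the list moved as a whole, and RefSeq start sites gave windows for 46 of its 57 genes. The letters CCAAT and TTTGAA were searched on both strands in the 300 bases from 250 before to 50 after each annotated start. TTTGAA is the core of a cell cycle homology region, an element of promoters of genes that peak in G2 and mitosis, and CCAAT is bound by the NF-Y complex. CCAAT was in 34 of 48 mitosis windows (70.8%) and in 37.4% of the 19177 windows of all tested genes. TTTGAA was in 34 of 48 (70.8%), against 14.8%, and both were in 29 (60.4%), against 5.85%. In 12 windows (25%) the motifs lay 20 to 40 bases apart, against 1.0% of all windows, a range chosen after the spacing was seen. Below, 150 bases from 120 before to 30 after the start are printed for 4 genes picked after their letters were seen, with CCAAT and TTTGAA, or their reverse complements, in capitals. These are matches of letters, and binding was not measured.
Ccnb2 (GRCm38.p6, chr9:70421525-70421674, minus strand): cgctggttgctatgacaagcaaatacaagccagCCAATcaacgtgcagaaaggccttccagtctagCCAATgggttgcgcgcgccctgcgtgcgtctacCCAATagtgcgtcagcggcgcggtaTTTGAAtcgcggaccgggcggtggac
Prc1 (GRCm38.p6, chr7:80294331-80294480, plus strand): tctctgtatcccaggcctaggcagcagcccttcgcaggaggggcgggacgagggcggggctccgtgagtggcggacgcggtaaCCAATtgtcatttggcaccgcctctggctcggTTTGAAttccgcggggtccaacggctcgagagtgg
Cdk1 (GRCm38.p6, chr10:69352883-69353032, minus strand): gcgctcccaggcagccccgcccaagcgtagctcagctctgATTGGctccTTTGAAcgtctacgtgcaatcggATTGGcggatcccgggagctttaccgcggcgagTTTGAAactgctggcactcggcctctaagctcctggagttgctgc
Top2a (GRCm38.p6, chr11:99024160-99024309, minus strand): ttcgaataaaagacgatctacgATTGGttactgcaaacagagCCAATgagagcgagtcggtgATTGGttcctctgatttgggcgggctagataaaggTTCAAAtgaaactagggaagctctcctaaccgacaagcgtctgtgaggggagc

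The genes with these promoters fell as the list did. Cdk1, the kinase that triggers mitosis, read 7.03, 7.03 and 7.55 at 24 hours and 4.79, 4.85 and 5.12 at 10 weeks, a 4.85-fold fall. Ccnb2, a cyclin partner of that kinase, fell by 3.71 on the log2 scale, from 9.22 to 5.52. Top2a, the topoisomerase that untangles replicated DNA, fell by 3.58 on the log2 scale, from 8.41 to 4.83. In all of these genes every newborn array was above every adult array.

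DNA replication genes fell less far. Of 51 tested, 41 were called lower and 1 higher, against 20.6% and 19.5% of all genes. The median was -0.71, and 20 falls reached 2-fold, against 3.39% of all genes. Cdk2, the kinase of S phase, fell from 8.39, 8.37 and 8.56 to 6.08, 6.20 and 6.10, and Dbf4, which activates the kinase that fires replication origins, fell by 2.29 on the log2 scale. Of the ribonucleotide reductase subunits, which make deoxynucleotides, Rrm2 fell from 7.67, 7.65 and 8.03 to 5.52, 5.59 and 5.38, and Rrm1 fell by 2.07 on the log2 scale. Gmnn, which encodes geminin, the inhibitor of origin licensing, was the gene called higher, at 5.35, 5.46 and 5.62 in newborns and 6.26, 6.41 and 6.31 in adults.

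Promoter windows of the replication list differed from the mitosis windows in their letters. TTTGAA was in 9 of 50 windows (18.0%), near the 14.8% of all windows and below the 70.8% of mitosis windows. CCAAT was in 30 (60.0%), against 37.4% of all windows and 70.8% of mitosis windows. At least 1 of TTTCGCGC, TTTGGCGC and TTTCCCGC, letters found in sites of E2F factors, was in 15 windows (30%), against 2.58% of all windows. These searches covered both strands, and matches of different motifs may overlap. Mcm6, a subunit of the replicative helicase, was chosen after its values and letters were seen. It fell by 1.93 on the log2 scale, from 7.38 to 5.45, and its window holds such letters at 3 places upstream of the start, in capitals, 2 of them overlapping in the first run.
Mcm6 (GRCm38.p6, chr1:128359676-128359825, minus strand): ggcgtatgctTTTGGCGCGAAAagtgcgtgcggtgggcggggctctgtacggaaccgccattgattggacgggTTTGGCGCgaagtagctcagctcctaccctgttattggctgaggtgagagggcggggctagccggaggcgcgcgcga

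Brakes and G1 regulators did not mirror these falls. In the list of cell cycle inhibitors and G1 regulators 7 of 26 were called higher and 13 lower, against 19.5% and 20.6% of all genes. The count of higher genes dropped to 3 without 10-week replicate 1 or without 24-hour replicate 3, and to 4 without 10-week replicate 3. The D-type cyclins Ccnd1 and Ccnd2, which start the cycle, were not called: Ccnd1 read 8.69, 8.80 and 9.05 in newborns and 8.77, 9.12 and 8.79 in adults, with overlap. Their kinase partners fell, Cdk6 by 1.63 and Cdk4 by 1.16 on the log2 scale, as did Ccnd3 by 0.99. The CDK inhibitors Cdkn1b and Cdkn1c fell by 0.61 and 0.94 on the log2 scale. Rbl1, a pocket protein that represses S-phase genes, fell by 1.31 on the log2 scale, and Wee1, which holds Cdk1 inactive, by 1.41. Gadd45a, a stress-induced growth arrest gene, rose from 6.47, 6.34 and 6.49 to 7.48, 7.67 and 7.66, and Ccng1, a p53 target, rose by 0.89.

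Imprinted genes are expressed from 1 parental copy and many promote fetal growth. Of 26 tested genes of that list, which also holds fetal RNA-binding proteins, 18 were called lower and 2 higher. Of all genes, 20.6% were called lower and 19.5% higher. In the list 15 of the falls reached 2-fold, and the list median was -1.46. Igf2, the fetal insulin-like growth factor, read 12.06, 12.07 and 11.98 at 24 hours and 7.90, 7.61 and 8.02 at 10 weeks, an 18.3-fold fall (adjusted p = 8.22e-10). Mest, an imprinted hydrolase gene, fell from 12.11, 12.21 and 12.03 to 6.81, 7.46 and 6.70. Plagl1, a zinc finger factor that regulates other imprinted genes, fell by 4.59 on the log2 scale, and the zinc finger gene Peg3 fell by 3.61. For all of these the 7-day mean lay nearer the newborn than the adult level: it was 11.32 for Igf2, 11.36 for Mest, 8.92 for Plagl1 and 8.79 for Peg3. Slc38a4, an imprinted amino acid transporter, read 9.98, 9.96 and 10.01 in newborns and 5.63, 5.81 and 6.18 in adults. The 2 genes called higher were Impact (1.28), an inhibitor of a translation-control kinase, and decorin, Dcn (0.86), a matrix proteoglycan.

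Growth factor signalling as a whole was split, with 11 of 38 called in each direction and a median of -0.02. Of all genes, 19.5% were called higher and 20.6% lower. The receptor Igf1r, through which Igf2 acts, fell from 8.72, 8.82 and 8.58 to 7.20, 7.22 and 7.35, and Igf1 fell by 0.93 on the log2 scale. Erbb4, the neuregulin receptor of heart muscle cells, fell by 1.44 on the log2 scale and the binding protein gene Igfbp5 by 1.46. Among fibroblast growth factors Fgf1 rose by 1.39, Fgf16 by 1.08 and Fgf2 by 1.03. Vegfb, a growth factor of coronary vessels and fatty acid uptake, rose by 0.81.

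Among cardiac transcription factors none of 32 was called higher and 19 were called lower, against 20.6% of all genes. Sox4, a factor of outflow tract development, fell from 9.32, 9.24 and 9.39 to 6.98, 6.40 and 7.06, which was 5.68-fold. Hey2, a Notch target that marks compact ventricular muscle, fell from 9.39, 9.47 and 9.46 to 6.13, 5.96 and 6.17, a 10.2-fold fall. Gata6 fell by 1.61 and Tbx20 by 1.43 on the log2 scale. Gata4, a core factor of heart muscle, fell by 0.55 on the log2 scale and Meis1, which restrains division of heart muscle cells, by 0.66. Nkx2-5 was at 7.83 and 7.53 and was not called; it was called lower without 10-week replicate 2 (-0.41) and when dim genes were left out (-0.30). Without 10-week replicate 3, 1 gene of the list was called higher.

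In the list of Notch, Wnt, Hedgehog, BMP and TGF-beta genes 6 of 45 were called higher and 20 lower. Of all genes, 19.5% were called higher and 20.6% lower. Of the 20 falls in the list, 10 reached 2-fold, and 3.39% of all genes were called lower at least 2-fold. Bmp10, a ligand that keeps embryonic heart muscle cells dividing and is later atrial, read 8.75, 8.53 and 7.42 at 24 hours and 4.42, 4.57 and 4.29 at 10 weeks, after a 7-day mean of 9.73. Bmp7 fell from 8.06, 8.42 and 8.42 to 5.82, 5.58 and 5.51, a 6.34-fold fall. Bmp6, a ligand that endothelium makes in response to iron, rose by 0.77, and the Notch ligand Jag2 rose by 0.76.

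The extracellular matrix list had 41 of 61 genes called lower, 26 of them at least 2-fold, and 8 called higher, with a median of -0.87. Of all genes 20.6% were called lower, 3.39% lower at least 2-fold and 19.5% higher. Fibrillin 2 (Fbn2), a microfibril protein of fetal tissue, fell from 8.59, 8.67 and 8.44 to 5.03, 5.19 and 4.94, which was 11.4-fold. Fibronectin (Fn1) fell by 3.12 on the log2 scale, from 10.78, 10.69 and 10.49 to 7.24, 7.74 and 7.63. Elastin (Eln) fell by 3.03 on the log2 scale, lysyl oxidase (Lox), which cross-links elastin and collagen, fell by 3.02, and tenascin C (Tnc) fell by 3.03. The fibrillar collagen Col1a1 fell from 10.12, 9.96 and 9.98 to 7.24, 7.57 and 7.70, after a 7-day mean of 10.52. Among the genes called higher were the vessel collagen Col8a1 (2.05), the metalloproteinase inhibitor Timp4 (1.26), which is abundant in heart, and the collagen-binding proteoglycan lumican, Lum (1.07).

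In the MHC list 15 of 16 genes were called higher, against 19.5% of all genes, and none lower, with a median of 0.99. Class II molecules show peptides to helper T cells and are made by macrophages, dendritic cells and B cells. Cd74, the chain that guides class II molecules through the cell, read 4.58, 4.52 and 4.95 at 24 hours and 9.69, 9.21 and 9.86 at 10 weeks (29.8-fold). H2-Ab1 rose by 4.35 and H2-Eb1 by 3.05. Class I antigen processing rose less: Psmb8, an immunoproteasome subunit, rose by 1.86, from 5.93, 6.07 and 6.07 to 8.05, 7.62 and 7.98. For H2-Aa, H2-Ab1, H2-Eb1, Cd74 and Psmb8, 10-week replicate 2 was the lowest adult array, and it remained far above every newborn array.

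The promoter of H2-Aa is shown for the known layout of class II promoters, in which an X box resembling a CRE is followed by a CCAAT-type Y box. TGACGTCA, the CRE letters, was in 2.37% of all windows and in 1 of 12 windows of the MHC list. CCAAT was in 37.4% of all windows and in 8 of those 12 (66.7%). Both are in capitals below, CCAAT as its reverse complement.
H2-Aa (GRCm38.p6, chr17:34287794-34287943, minus strand): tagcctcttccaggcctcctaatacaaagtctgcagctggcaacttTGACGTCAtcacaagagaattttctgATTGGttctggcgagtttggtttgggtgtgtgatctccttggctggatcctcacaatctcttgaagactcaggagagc

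Interferon-inducible genes showed the same direction, with 27 of 32 called higher and none lower, 13 of them at least 2-fold, and a median of 0.81. Of all genes 19.5% were called higher, and 3.0% higher at least 2-fold. Ifi205, a DNA-binding gene of the HIN-200 family, rose from 3.51, 3.42 and 3.38 to 8.10, 8.17 and 7.76, a 23.8-fold ratio against newborn signals below the median of all features. Ifit3, an antiviral gene, rose from 5.79, 5.70 and 5.74 to 8.34, 7.72 and 8.37, and Iigp1, an interferon-gamma-induced GTPase, from 5.78, 5.49 and 5.69 to 8.07, 7.09 and 8.25. For the latter pair 10-week replicate 2 was again lowest. At 7 days the means of Ifit3 (5.49), Ifit1 (4.44) and Iigp1 (5.38) were no higher than in newborns. Complement genes rose in 15 of 18 cases with none called lower, led by the protease C1s1 (2.89) and C7 (2.22), of the membrane attack complex. Without 24-hour replicate 3, and after quantile normalization, 1 complement gene was called lower.

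Markers of the cells a heart sample can hold differed in direction from list to list, and their part in the results above was not tested. Of 17 macrophage markers 14 were called higher and none lower, against 19.5% and 20.6% of all genes, with a median of 1.23. The median signal of the list was 6.03 to 6.11 on the newborn arrays and 7.10 to 7.61 on the adult arrays. Lyz2, lysozyme, read 7.30, 7.24 and 7.28 at 24 hours and 10.21, 10.19 and 10.18 at 10 weeks, a 7.55-fold rise. Folr2, of resident macrophages, rose by 2.81 and Adgre1, an adhesion receptor of macrophages, by 1.97. Without 10-week replicate 2, 1 macrophage gene was called lower. T and NK cell markers were called higher in 8 of 12 cases, none by 2-fold, and their list median was 3.92 to 4.06 in newborns and 4.21 to 4.30 in adults; leaving out 24-hour replicate 3 left 5 calls. None of 9 B cell markers was called, and leaving out 24-hour replicate 1, or 10-week replicate 2 or 3, left 1 called higher. Centring each array on its median gave 3 called higher. In the list of neutrophil and mast cell genes 5 of 13 were called lower and none higher, with a median of 0.003, and 1 was called higher without 10-week replicate 2 or 24-hour replicate 1. The largest falls were those of the mast cell genes Cpa3 (4.55-fold) and Kit (2.39-fold), while the mast cell protease gene Mcpt4 was not called (0.22).

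Fibroblast markers moved apart, with 9 of 18 called higher and 5 lower, against 19.5% and 20.6% of all genes. The collagens Col1a1, Col1a2 and Col3a1, periostin (Postn) and the factor Tcf21 fell, while gelsolin (Gsn, 1.54), Pi16 (1.35) and cytoglobin (Cygb, 1.12) rose. Postn read 11.81, 11.76 and 11.76 in newborns and 9.45, 9.64 and 9.91 in adults. The receptor Pdgfra, which defines fibroblasts and was picked after its values were seen, had the same mean of 8.38 at both ages and was not called. The list median was 8.14 to 8.44 on newborn arrays and 8.12 to 8.27 on adult arrays. Epicardial and mesothelial markers fell in 11 of 13 cases, none rose, and the median was -1.24: Upk1b fell by 1.63 and mesothelin, Msln, by 1.58 on the log2 scale.

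Endothelial markers were split, with 7 of 17 called higher and 6 lower, against 19.5% and 20.6% of all genes, and a median of 0.12. The water channel Aqp1 rose from 8.17, 8.12 and 8.05 to 9.75, 9.84 and 9.81, while the junction gene Cdh5 fell by 0.39 on the log2 scale. Among 14 mural cell markers 6 were called higher, with the pericyte genes Vtn (2.58) and Rgs5 (1.62) leading, and 4 lower, with the smooth muscle genes Acta2 (-2.35) and Cnn1 (-1.84) leading. The call of Cnn1 ended with 10-week replicate 1 as the lone adult array (-2.13). Schwann cell gene Cdh19 rose by 1.53; 2 of 11 glia and nerve genes were called higher and 1 lower.

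**Figure D5:**
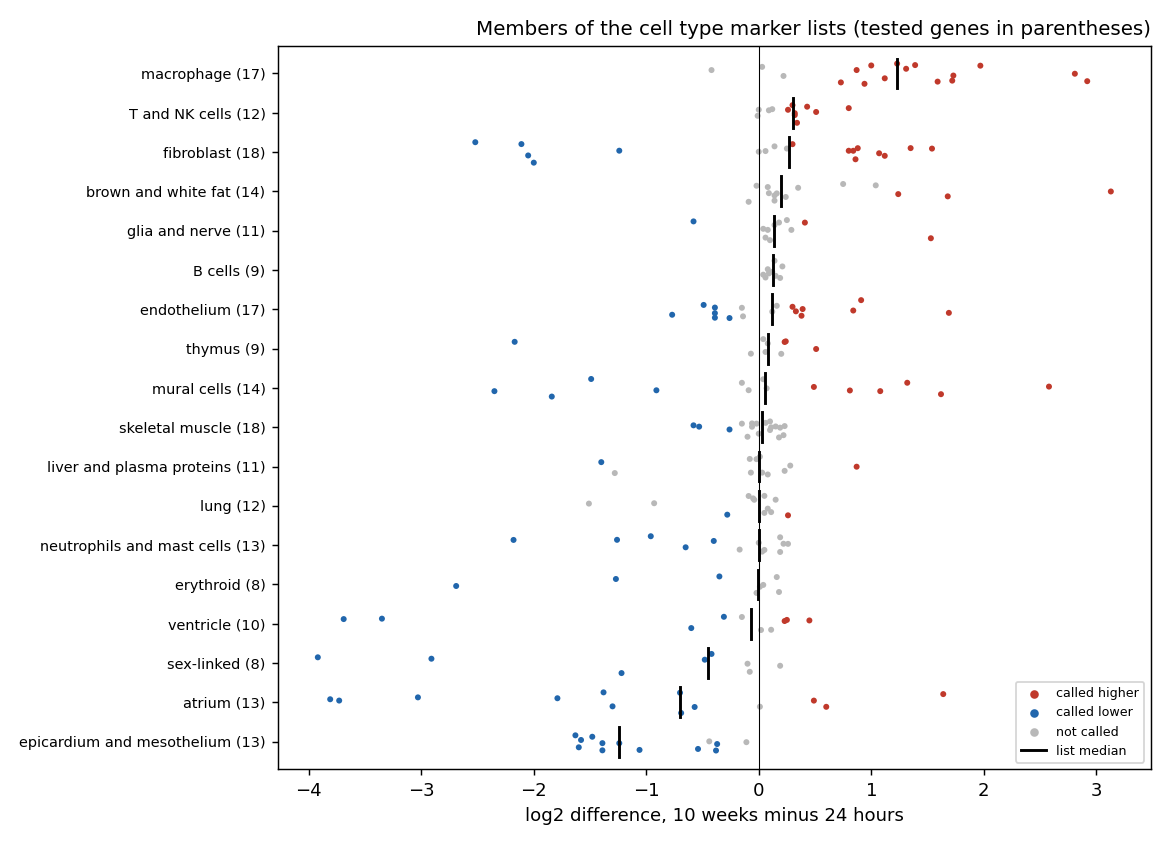
Each point is 1 marker gene of a cell type or tissue, placed by its log2 difference (10 weeks minus 24 hours); colours and black median bars are as for the functional lists. The macrophage list has the highest median, 1.23, and the epicardium and mesothelium list the lowest, -1.24.

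The tissue labelled cardiac muscle carried its defining genes at both ages, with Myl2 at 12.88 and 12.90, Tnnt2 at 13.16 and 13.09 and Actc1 at 13.32 and 13.16. Atrial markers were lower at 10 weeks in 9 of 13 cases and higher in 3, against 20.6% and 19.5% of all genes. The atrial list median was 7.92 to 8.75 on newborn arrays, and 6.43, 7.79 and 7.52 on the adult arrays, lowest on replicate 1. Labels do not state how much atrium was taken, so atrial content and age cannot be told apart for these genes. With 10-week replicate 1 as the lone adult array 1 atrial gene was called higher in place of 3. The calls of Chrm2 and Kcnj3 ended there although their differences, 0.49 and 0.60, became 0.59 and 0.60. Natriuretic peptide A, Nppa, a hormone of atria and of the fetal ventricle, fell by 0.57 on the log2 scale, from 13.14, 13.23 and 12.88 to 12.49, 12.50 and 12.57. Clusterin (Clu) rose by 1.64. Ventricular markers had 3 of 10 called higher and 4 lower, the largest falls being Kcne1 and Hey2.

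Sex-linked genes also separated the ages. Eif2s3y, on the Y chromosome, read 7.07, 7.70 and 6.28 at 24 hours and 3.12, 3.30 and 2.87 at 10 weeks, and Uty, also Y-linked, 6.37, 6.86 and 5.26, then 3.21, 3.34 and 3.20. Xist, which is made from the inactive X of females, was at 9.10, 8.30 and 9.37 in newborns and 8.80, 8.69 and 8.97 in adults and was not called. Y-linked signal was thus present on every newborn array and low on every adult array. Every newborn array held Xist and Y-linked signal together, while the adult arrays held Xist with low Y-linked signal. Whether the newborn samples mixed both sexes was not tested. Sex makeup of the samples and age cannot be told apart for any gene that differs between sexes.

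Of the markers of neighbouring tissues 3 of 18 were called for skeletal muscle, 3 of 14 for fat, 2 of 12 for lung and 2 of 11 for liver and plasma proteins. These lists were dim, and of all genes 40.1% were called, of the dimmest 25% of genes 11.3%, so the counts do not set these tissues apart from other dim genes. The count of skeletal muscle genes called higher was 0, and 1 or 2 without 10-week replicate 1, 2 or 3 or 24-hour replicate 1. It was 3 after centring each array on its median. In the lung and liver lists 1 gene was called in each direction, and leaving out single arrays moved these counts between 0 and 2. In the fat list Thrsp, a lipogenic gene, rose from 5.43, 5.46 and 5.53 to 8.65, 8.65 and 8.53. The SE of that rise, 0.48, was pooled over the 3 ages. The list median of fat markers was 8.02 on 7-day replicate 2 against 4.57 to 5.49 on the 6 arrays compared. Among the 7-day arrays, Ces1d (4.14, 6.42 and 4.78) and Pcx (4.63, 6.17 and 5.09) were also highest on replicate 2. Whether fat in the samples bears on their rises was not tested. Erythroid genes were called lower in 3 of 8 cases, and Alas2, of haem synthesis, read 4.56, 7.12 and 4.25 in adults against 7.51 to 8.39 in newborns. Leaving out single arrays left 2 or 3 erythroid calls.

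Of 39 chromatin and DNA methylation genes, 26 were called lower and 5 higher, against 20.6% and 19.5% of all genes, with a median of -0.49. Hmgb2, a chromatin protein of dividing cells, fell from 9.63, 9.51 and 9.92 to 7.48, 7.60 and 7.56, and Ezh2, the methyltransferase of the Polycomb repressive complex, from 8.14, 8.19 and 8.22 to 6.28, 6.13 and 6.31. Tet1, which oxidises methylated cytosine, fell by 1.98 on the log2 scale. Cbx7, a Polycomb reader of non-dividing cells, rose by 1.46 and Ezh1, the paralog of Ezh2, by 0.41. The count of chromatin genes called higher was 3 without 10-week replicate 1, 10-week replicate 2 or 24-hour replicate 3.

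Of 25 splicing regulators, 17 were called lower and 3 higher, against 20.6% and 19.5% of all genes. Rbfox1, a splicing factor of mature muscle and brain, rose from 7.13, 6.93 and 6.95 to 8.02, 7.88 and 8.20, and Mbnl1, which promotes adult splice forms in muscle, rose by 0.63. Mbnl3, its paralog of immature cells, fell by 1.25 and Ptbp2 by 1.05 on the log2 scale. The paralogs Mbnl1 and Mbnl3 were thus called in opposite directions.

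Adrenergic, muscarinic and natriuretic signalling genes were called higher in 11 of 33 cases and lower in 14, against 19.5% and 20.6% of all genes. Gnai1, an inhibitory G protein subunit, fell from 7.07, 7.23 and 7.11 to 4.92, 4.91 and 4.84 (4.76-fold), and the endothelin receptor Ednrb fell by 1.74 on the log2 scale. The phosphodiesterase Pde7a rose by 1.23. Natriuretic peptide B, Nppb, read 10.31, 11.05 and 10.38, then 11.28, 11.69 and 11.23. Its rise of 0.82 was not called without 10-week replicate 2, without 24-hour replicate 1 or without 24-hour replicate 3 (0.68 to 0.72).

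For some bright genes the signal differed little between the newborn and the adult heart. Over all genes, 13730 had a 95% interval of the difference within 0.5 of 0, and 11423 of these were not called. The 10 with the narrowest intervals among the brightest 25% were Gng5, Myl2, Tpt1, Rn7sk, Eif4g2, Pgm1, Prkar1a, Sdha, Rras2 and Slc25a3. Sdha, the catalytic subunit of respiratory complex II, was at 11.83, 11.77 and 11.77 in newborns and 11.82, 11.73 and 11.84 in adults. Slc25a3, the mitochondrial phosphate carrier, read 11.07, 11.08 and 11.08, then 11.06, 11.09 and 11.09. Prkar1a, a regulatory subunit of protein kinase A, had a mean of 10.22 at both ages. Rn7sk (13.32 and 13.30) and Myl2 lay close to the highest signals of the arrays, 13.47 to 13.58, and whether saturation narrowed their differences was not tested.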

How the data were processed

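The authors deposited 1 table with a log2 value for each of 35556 features on 9 arrays. The submitters' processing notes name MAS5 5.0. How probes were summarised, and how arrays were scaled to each other, is not given in the sources used here. Values reach 13.6, above what a natural log of a 16-bit scan allows, and no pseudocount was added. The platform annotation gave 1 gene symbol to 21789 features, and several symbols to 1621, which were left out with the 12146 not listed. By Entrez identifier, 21698 of these symbols were matched to RefSeq genes, and 91 were kept as the platform gave them. For 999 genes with several probe sets the one with the highest mean over 9 arrays was kept, leaving 19938 genes; 9 of the 999 had probe sets called in opposite directions. Genes measured by probes shared with a near-identical copy cannot be separated from it.

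All 9 arrays entered 1 limma 3.58.1 fit (R 4.3.3; 1 mean per age, eBayes with an intensity trend). The tested contrast was 10-week minus 24-hour, with Benjamini-Hochberg adjustment over all genes. On data simulated for this comparison over 19938 genes, 88% of 50 genes changed by 0.5, 98% of 50 changed by 1, 100% of 50 changed by 2 and 98% of 50 changed by -1 were recovered. The number of arrays limits the precision.

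The comparison, gene lists and marker lists were chosen with earlier results of these data known. Named genes are the 12 largest rises and falls whose arrays do not overlap and whose higher mean exceeds the median of all genes; up to 5 called members per list and direction, or the 2 largest where fewer were called; a fixed set of heart genes; and the 10 bright genes with the narrowest interval. Ccnb2, Top2a, Mcm6, Scgb1a1, Kcna5, Mcpt4 and Pdgfra were chosen after their values were seen. Promoters are RefSeq windows of GRCm38.p6. Alternatives were other variance priors, 6 arrays, other scalings, a signal filter, other probe set rules, a replicate block and leaving out each array; removal of 10-week replicates 2 and 3 together was added after seeing the data.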

Additional observations from a re-analysis of the deposited data

How the results depend on the processing

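Under every alternative run the counts of called genes stayed within 1.5 times the 7989 of the report. They ranged from 6772 to 8085 when 1 array was left out, lowest without 24-hour replicate 2, and were 7033 without 10-week replicates 2 and 3, 7315 with 6 arrays, 6718 with the signal filter and 7656 after quantile normalization. Centring each array on its median gave 8385, with 4551 higher and 3834 lower. With the replicate number as a block, 7724 genes were called (3714 higher and 4010 lower). Deviations of same-numbered arrays correlated between -0.174 and 0.133, and those of differently numbered arrays between -0.216 and 0.25. With 3 arrays per age these values cannot tell whether the numbers pair the samples. No named gene reversed. Of 367 named genes called, 317 kept their call in each of the 19 settings that tested them and 50 lost it in at least 1; the signal filter and the removal of genes with several probe sets left some untested. Among the 50 were Ttn, Ryr2, Esrra, Esrrg, Vwf and Myh11. Leaving out 10-week replicates 2 and 3 leaves 1 adult array, taken to vary as the other ages do. The counts called lower were then 7 for cytosolic ribosomal proteins, 1 for the clock and 2 for sex-linked genes, while lost calls such as Per1 (-0.33, then -0.32) and Kdm5d (-1.22, then -1.42) kept differences of about the same size. Leaving out genes with several probe sets, and so testing fewer, left 5 thin filament genes called lower, 6 calcium handling genes called higher and 2 creatine genes called lower. Few of the dimmest genes were called, and whether dim signal limited the test was not tested.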

Other observations

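Genes of protection against oxidation and foreign compounds were called higher in 19 of 34 cases and lower in 7. Of all genes, 19.5% were called higher and 20.6% lower. Xdh, xanthine dehydrogenase, read 5.37, 5.42 and 5.07 at 24 hours and 8.36, 8.10 and 8.32 at 10 weeks, a 7.82-fold rise. The glutathione transferase Gsta3 rose from 4.01, 4.08 and 4.01 to 6.49, 6.07 and 6.33, and the quinone reductase Nqo1 by 2.24. The metallothioneins Mt2 and Mt3, which bind zinc and copper, fell by 0.84 and 0.88 on the log2 scale, and Hmox1, which degrades haem, by 0.69. In the circadian clock list 9 of 17 genes were called higher and 3 lower, against 19.5% and 20.6% of all genes. The clock repressor Nr1d1 rose from 7.86, 7.77 and 7.98 to 9.82, 9.59 and 9.96, and the clock output gene Dbp rose by 1.46, with Ciart up by 1.51. Nfil3, which opposes Dbp at its sites, fell by 0.68 on the log2 scale. The time of day of collection is not in the labels used here, so it and age cannot be told apart for these genes.

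Ribosomal lists differed in their counts. Of all genes, 19.5% were called higher, 20.6% lower and 40.1% in either direction. Mitochondrial ribosomal proteins were called higher in 33 of 75 cases and lower in 3, none by 2-fold, with a median of 0.19, and leaving out single arrays moved the higher count between 24 and 41. Mrpl14 (0.95) and Mrpl30 (0.82) rose most. Cytosolic ribosomal proteins were called lower in 16 of 47 cases and higher in 3, with a median of -0.14. That list is bright, with median signals of 10.62 in newborns and 10.31 in adults. Among the brightest genes, as grouped above, 67.1% were called, so its counts do not show more change than in other bright genes. The count higher was 1 without 10-week replicate 2, 24-hour replicate 1 or 2, or 7-day replicate 3. Leaving out genes with several probe sets left 2 called lower. Rplp0, of the ribosomal stalk, fell by 0.44 on the log2 scale. Of 40 proteasome and ubiquitin ligase genes, 7 were called in each direction, near the 19.5% and 20.6% of all genes called higher and lower. The muscle ring finger genes moved apart: Trim54 rose from 5.47, 5.60 and 5.61 to 8.78, 8.69 and 8.25, and Trim55 fell from 9.57, 9.60 and 9.58 to 7.67, 7.87 and 7.75. Asb15, a muscle substrate adaptor of ubiquitin ligases, rose by 2.82, and Fbxo32, the atrophy ligase atrogin-1, by 1.22. In the thymus list 3 of 9 genes were called higher and 1 lower, Cd1d1, by 2.17 on the log2 scale.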
